A study of Mus musculus with 21 samples.

Results

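The metzincin proteases and their inhibitors were read out as mRNA in cultured mouse mammary fibroblasts. The set held every gene whose symbol begins with Mmp, Adam or Adamts followed by its number or letter (Adamtsl genes included), together with Timp1 to Timp4, and left out annotated pseudogenes named -ps. This gave 85 of 45706 genes, made up of 24 matrix metalloproteinases (MMPs), 33 ADAMs, 19 ADAMTS proteases, 5 ADAMTS-like genes and 4 tissue inhibitors of metalloproteinases (TIMPs). The 2 lines compared were NF1 and CAF1. NF1 (NF below) holds fibroblasts from normal mammary tissue of the FVB/n strain. CAF1 (CAF below) holds fibroblasts of an MMTV-PyMT mammary carcinoma, a tumour driven by the polyoma middle T antigen in the mammary epithelium. Both were kept in DMEM with 10% serum and transfected with 100 nM siRNA, either a non-targeting control or a pool that targets Hsp90aa1 (siHsp90aa1) or Hsp90ab1 (siHsp90ab1), which encode the HSP90 alpha and beta chaperones. There were 7 groups with 3 libraries each. The 4 NF groups were control siRNA with vehicle, and control siRNA, siHsp90aa1 and siHsp90ab1 each with TGFb1. The 3 CAF groups were control siRNA, siHsp90aa1 and siHsp90ab1, all with vehicle. TGFb1, at 5 ng/mL, was present from 5 h after transfection, and RNA was taken at 48 h. Each origin was represented by 1 line, so a difference between NF and CAF cannot be told apart from a difference between these 2 lines. The NF knockdowns were done with TGFb1 and the CAF knockdowns without it.

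MMPs are secreted or membrane-anchored zinc proteases that cut collagens and other matrix proteins, and most are made as inactive proenzymes that another protease has to open. ADAMs are membrane proteins, and the catalytically active ones cut growth factors, cytokines and receptors off the cell surface, whereas ADAMTS proteases are secreted and act on proteoglycans, procollagens and fibrillin microfibrils. TIMPs bind the active site of MMPs, and TIMP3 also holds several ADAM and ADAMTS enzymes in check. Fibroblasts are a main source of these enzymes in the mammary stroma.

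Of the 24 MMP genes 10 lie close together on chromosome 9 (chr9:7272514-7699585, GRCm38), a stretch of 427 kb that holds the collagenase genes Mmp13, Mmp1a, Mmp1b and Mmp8 and the stromelysin genes Mmp3 and Mmp10. Mmp3 was detected at up to 11.1 CPM in a CAF library, and the other 9 genes of the block had no count or too few counts to test. RefSeq windows of 300 bases (250 before and 50 after the transcription start, GRCm38.p6) were available for 53 member symbols, 29 of them tested. The AP-1 motif TGANTCA (N is any base, both strands searched) was found in 8 of the 12 windows of the block, which belong to 8 of its 10 genes. It was found in 0 of the 9 windows of MMP genes elsewhere and in 7.81% of all 32851 windows of this length. Those 9 windows cover 8 genes, and no window was available for Mmp2, Mmp9, Mmp16, Mmp17 and Mmp19. The TATA motif TATAAA was found in 9 of 12, in 1 of 9 and in 13.6%. The SMAD-type motif CAGACA showed the same contrast, in 6 of 12 and in 0 of 9, against 21% of all windows, so AP-1 and TATA were not alone in it. Over all tested members, Mmp3 included, AP-1 was found in 2, TATA in 3 and CAGACA in 1 of 32 windows. Over the members not tested, the rest of the block included, AP-1 was found in 11, TATA in 12 and CAGACA in 11 of 26. The motifs were thus not particular to the block: outside it, untested Adam1b, Adam20, Adam25 and Adam29 carried AP-1, and Mmp21, Adam6a, Adam6b and Adam29 carried TATA. Among tested members outside the block, Adam19 carried AP-1 in 1 of its windows, and Adamts1 and Adamtsl2 carried TATA. The 100 bases directly upstream of the start are shown for 3 genes of the block, which carry both motifs, and for Mmp14, the most strongly expressed MMP gene, which carries neither. All are on the plus strand, and capitals mark the AP-1 and TATA matches.
Mmp13, chr9:7272414-7272513: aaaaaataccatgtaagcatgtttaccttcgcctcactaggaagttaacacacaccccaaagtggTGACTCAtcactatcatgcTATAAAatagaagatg
Mmp3, chr9:7445722-7445821: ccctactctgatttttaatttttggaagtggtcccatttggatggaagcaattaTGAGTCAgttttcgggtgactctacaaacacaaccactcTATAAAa
Mmp10, chr9:7502242-7502341: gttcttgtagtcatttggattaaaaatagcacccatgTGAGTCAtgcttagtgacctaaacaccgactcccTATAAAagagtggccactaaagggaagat
Mmp14, chr14:54431498-54431597: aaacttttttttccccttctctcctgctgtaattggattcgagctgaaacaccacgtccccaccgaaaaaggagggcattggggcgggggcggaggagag
The first letter of the AP-1 match lies 35, 46 and 63 bases upstream of the start in Mmp13, Mmp3 and Mmp10, and that of the TATA match 16, 7 and 29 bases upstream. A match is a stretch of letters, and binding was not measured.

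The libraries held 35087180 to 70421576 counts, and mitochondrial genes took 1.67% to 4.30% of them. The 9 fibroblast markers summed to 7785 to 61914 CPM (counts scaled to the library's total) per library, although Lum, 1 of them, was at 0 in NF with siHsp90aa1. Markers of other cell types were low, and the epithelial and endothelial sums were higher in CAF. The 7 epithelial markers summed to 0.400 to 0.579 CPM in NF with vehicle, where Krt18 was at 0, and to 5.58 to 22.2 in CAF controls, most of it Krt19 (mean 13.5). The 5 endothelial markers summed to 0.305 to 0.596 CPM in NF with vehicle, where Emcn was at 0, and to 3.56 to 6.44 in CAF controls, most of it Kdr (mean 4.28). With TGFb1 in NF the sums were 0.968 to 1.62 for the epithelial and 0.509 to 0.916 for the endothelial markers. The 6 immune markers summed to 4.99 to 5.84 CPM in NF with vehicle and 3.93 to 5.82 in CAF controls, and the 4 pericyte markers to 9.05 to 15.3 and 13.8 to 24.7. The part of these cell types in the results was not tested. Each siRNA lowered its target: Hsp90aa1 was left at 12.4% in NF and 10.0% in CAF, and Hsp90ab1 at 13.3% and 9.96%, relative to control siRNA. With siHsp90ab1 the other gene, Hsp90aa1, was also down, at 48.1% and 47.6%. The labels do not say whether the 3 libraries of a group came from separate cultures, so the p-values measure only the spread between these libraries.

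Of the 85 genes 50 had enough counts to be tested (13 MMPs, 14 ADAMs, 15 ADAMTS, 5 ADAMTS-like genes and 3 TIMPs). No count at all was seen in any of the 21 libraries for 16 genes: Mmp1a, Mmp7, Mmp20, Mmp21, 1 of 2 entries named Mmp27, and Adam2, Adam3, Adam6a, Adam6b, Adam20, Adam24, Adam26a, Adam26b, Adam29, Adam34 and Adam39. A further 19 had too few counts: Mmp1b, Mmp8, Mmp10, Mmp12, Mmp13, the other Mmp27 entry, Adam1b, Adam7, Adam18, Adam21, Adam22, Adam25, Adam28, Adam30, Adamts13, Adamts18, Adamts19, Adamts20 and Timp4. Many of the undetected ADAMs are known from testis and sperm, and Mmp20 is the tooth enamel protease. In the smallest library 1 CPM corresponds to 35.1 counts, and a count of 0 there allows a level of up to 0.0855 CPM (3 counts, counting error only). The 16 genes with no count were thus not detectable at this depth, which does not show that they are absent. The other 19 were detected at least once but could not be tested.

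Levels of different genes can be compared per transcript length, in TPM, where values after ± are standard deviations over 3 libraries. In such bulk libraries fewer cells of a type and less RNA per cell cannot be told apart. The inhibitors led: Timp1 ranked first with 407 ± 38.8 TPM in NF with vehicle, 1471 ± 255 with TGFb1 and 619 ± 209.6 in CAF controls, and Timp2 ranked second, by the mean over the 7 groups. Mmp14, the membrane-type protease that activates pro-MMP2, was the highest protease gene (167 ± 16.2, 233 ± 22.4 and 240.4 ± 22.9 TPM), followed by Timp3, Mmp2, Adam9, Adam15, Adam10, Adam12 and Adamts2. Summed over each family, TIMP mRNA reached 855 ± 30.6 TPM in NF with vehicle, 2275 ± 284 with TGFb1 and 1335 ± 244 in CAF controls, and MMP mRNA 252 ± 29.6, 352 ± 38.6 and 630.4 ± 70.4. The lowest TIMP sum of any library, 828 TPM, was above the highest MMP sum, 826 TPM. The order depended on the group. In CAF with siHsp90aa1 Timp2 led, at 780.1 ± 86.6 TPM against 469 ± 127 for Timp1. Mmp2 stood at 13.1 ± 0.7199 TPM in NF with vehicle and 234 ± 36.8 in CAF controls, and Adam33 at 0.573 ± 0.211 and 58.7 ± 0.416.

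**Figure D1:**
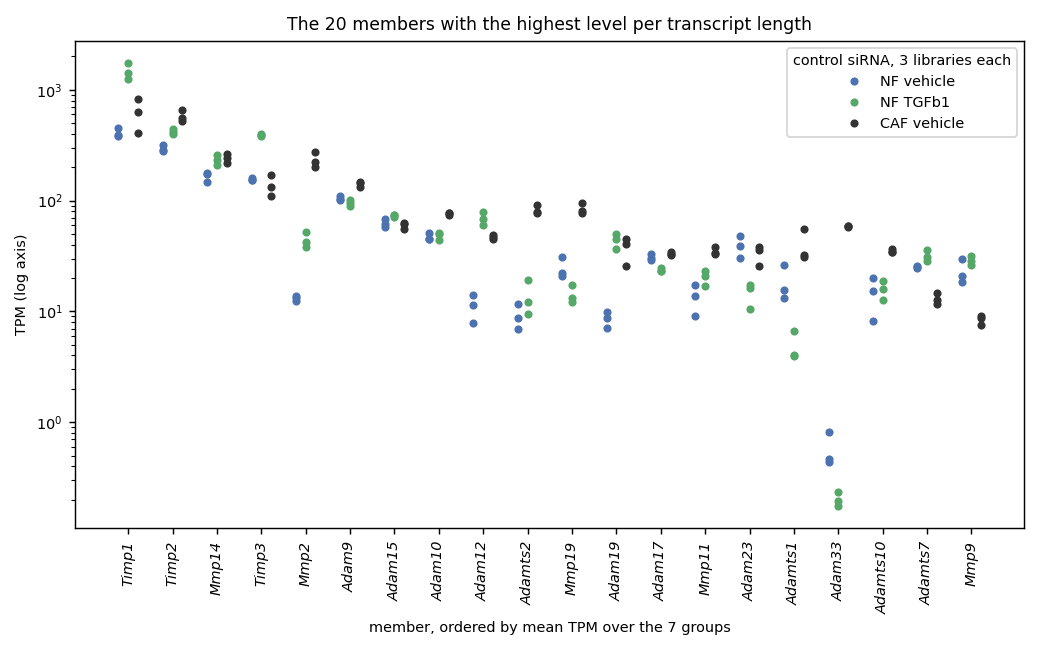
TPM (log axis) of the 20 members with the highest mean over the 7 groups, with 1 point for each of the 3 control-siRNA libraries of NF with vehicle, NF with TGFb1 and CAF. Timp1, Timp2 and Mmp14 lie above 100 TPM in all 9 libraries, whereas Mmp2 and Adam33 lie far lower in NF than in CAF.

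Differences between groups were tested on counts with edgeR's quasi-likelihood test, with Benjamini-Hochberg adjustment over all 15230 genes tested, and a gene was called at an adjusted p under 0.05. From here levels are CPM normalised by the trimmed mean of M values, and values after ± are the standard error for a log2 fold change and the standard deviation for a level. More members were called higher than lower in CAF, where the epithelial and endothelial marker sums were higher too: 29 of the 50 tested members were called higher and 8 lower, where 31.6% of all tested genes were called higher and 30.0% lower. The median log2 fold change was 0.83 over the members and -0.00 over all genes. With TGFb1 in NF the set was split, with 16 called higher and 12 lower against 14.6% and 14.4% of all genes, and medians of 0.24 and -0.03. With siHsp90aa1 in NF with TGFb1, 12 members were called higher and 2 lower (14.8% and 13.5% of all genes). With the replicate number as a block these became 16 and 6, against 19.3% and 18.0%. Here the lower count was 1 without TGFb1 control 3 or siHsp90aa1 replicate 1 or 2, and 5 without siHsp90aa1 replicate 3. With siHsp90aa1 in CAF, 14 were called higher and 2 lower (12.5% and 12.9%), and with the block 20 and 4 (17.7% and 16.4%). The higher count in CAF was 9, 6, 9 and 8 without control 1, control 2, siHsp90aa1 replicate 1 and siHsp90aa1 replicate 3, and the lower count 5 without control 3. Over all genes the calls either way moved too, to between 2911 and 3801 in NF and between 2460 and 4426 in CAF. The siRNA against Hsp90ab1 gave 0 members higher and 1 lower in each line, against 1.06% and 1.62% of all genes in NF and 0.466% and 0.433% in CAF. Higher at an unadjusted p under 0.05 were 1 member in NF and 3 in CAF, and DESeq2 called 0 and 1 higher. With the block 1 member was called higher in each line, Mmp28 in NF (adjusted p = 0.0468, where 2.65% of all genes were higher) and Mmp15 in CAF (adjusted p = 0.0131, 1.29%). Adam1a, Adam4, Adam32 and Adamts8 were called in none of these 6 comparisons. The comparison of CAF with NF and that of TGFb1 share the NF vehicle libraries, and those of TGFb1 and of both NF knockdowns share the NF TGFb1 controls, so their values are given side by side only.

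**Figure D2:**
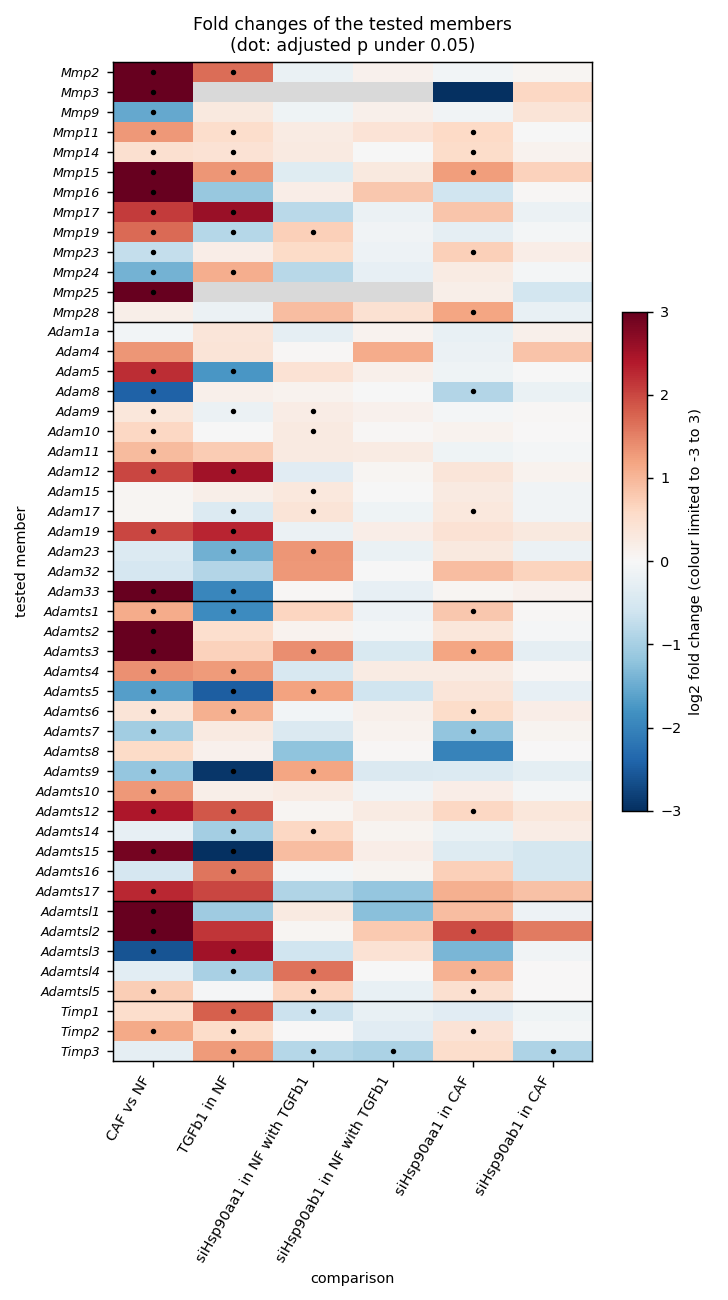
Log2 fold change (colour, limited to -3 to 3) of the 50 tested members in 6 comparisons, with families separated by lines and a dot where the adjusted p was under 0.05. Grey cells were not called and have at most 3 counts in 1 group. The CAF column is mostly red, the TGFb1 column mixed, and the columns of siHsp90ab1 pale with a single dot each, at Timp3.

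The inhibitor genes rose together with TGFb1 in NF, where all 3 tested TIMP genes were called higher, as were 14.6% of all genes. Timp1 (chrX:20870166-20874735, plus strand), a secreted inhibitor of most MMPs, was at 168, 151 and 165 CPM with vehicle and at 568, 475 and 642 with TGFb1. The groups lay far apart (log2 fold change 1.80 ± 0.24, adjusted p = 2.00e-05). Timp3 (chr10:86300372-86349506, plus strand), the matrix-bound inhibitor, was at 437, 412 and 374 CPM with vehicle and at 1005, 974 and 965 with TGFb1 (log2 fold change 1.27 ± 0.21, adjusted p = 0.000209). Timp2 (chr11:118301069-118355740, minus strand), which carries pro-MMP2 to MMP14, rose by a smaller amount, from 389, 413 and 393 to 549, 570.4 and 623 CPM (log2 fold change 0.54 ± 0.11, adjusted p = 0.00114). In CAF controls Timp2 was at 993, 817 and 799 CPM, above every NF vehicle library (log2 fold change 1.13 ± 0.11, adjusted p = 9.43e-08). Timp1 and Timp3 were not called between CAF and NF (0.53 ± 0.24 and -0.26 ± 0.21, adjusted p = 0.0611 and 0.292), and their CAF libraries overlapped those of NF. In Timp3, 21.3% of the exon bases overlap the gene Syn3 on the other strand, which was at 0.413 TPM, and the strand setting of the counting is not given in the sources used here.

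Timp3 was called lower with both HSP90 siRNAs in NF with TGFb1, and it was the 1 member called with siHsp90ab1, lower in both lines. Against 1005, 974 and 965 CPM in the TGFb1 controls, it was at 462, 506 and 669.5 with siHsp90aa1 (log2 fold change -0.85 ± 0.21, adjusted p = 0.00632). With siHsp90ab1 it was at 436, 539 and 558 (log2 fold change -0.94 ± 0.21, adjusted p = 0.0204). All 6 knockdown libraries lay below all 3 controls. In CAF, where controls were at 276, 323 and 421 CPM, the 2 siRNAs went apart. There siHsp90ab1 gave 139, 149 and 245 (log2 fold change -0.94 ± 0.21, adjusted p = 0.0426, with the block 0.00334, by DESeq2 0.00157). In the siHsp90aa1 libraries of CAF Timp3 was at 391, 445 and 636 (log2 fold change 0.53 ± 0.21, adjusted p = 0.0755, with the block 0.0147). The controls and the siHsp90aa1 libraries overlapped, and the siHsp90ab1 libraries lay below both. The siHsp90ab1 call was lost in NF without TGFb1 control 1 or 2 or siHsp90ab1 replicate 1 or 2 (adjusted p = 0.0807, 0.0673, 0.131 and 0.0692). It was lost in CAF without control 2 or 3, without siHsp90ab1 replicate 1 or 2, and with only these 2 groups in the fit (adjusted p = 0.126, 0.172, 0.196, 0.209 and 0.289). Timp1 also fell with siHsp90aa1 in NF, to 336, 308 and 426 CPM (log2 fold change -0.66 ± 0.24, adjusted p = 0.0452), a call lost without control 1 or 3 or siHsp90aa1 replicate 1 or 2 (adjusted p = 0.102, 0.143, 0.128 and 0.1499). Timp2 rose with siHsp90aa1 in CAF, to 1341, 1072 and 1050.3 CPM (log2 fold change 0.41 ± 0.11, adjusted p = 0.0113), a call lost without control 2 or 3 or siHsp90aa1 replicate 1 and with only these groups in the fit (adjusted p = 0.0714, 0.0502, 0.0889 and 0.07501).

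The 2 gelatinase genes, whose products cut denatured and basement membrane collagen, were opposed between the lines. Mmp2 (chr8:92827291-92853420, plus strand) was at 24.9, 21.3 and 19.2 CPM in NF with vehicle and at 432, 312 and 352 in CAF controls (log2 fold change 4.07 ± 0.23, adjusted p = 3.70e-11). Mmp9 (chr2:164940780-164955850, plus strand) was at 34.5, 35.1 and 48.2 CPM in NF and at 14.3, 12.1 and 14.3 in CAF (log2 fold change -1.53 ± 0.15, adjusted p = 1.06e-07). Neither gene's groups overlapped. With TGFb1 Mmp2 rose to 63.5, 67.7 and 79.1 CPM (log2 fold change 1.68 ± 0.21, adjusted p = 7.95e-06), still below every CAF library. Mmp9 was at 50.01, 43.5 and 50.1 with TGFb1 (log2 fold change 0.29 ± 0.15, adjusted p = 0.167). Neither was called with an HSP90 siRNA against control in either line.

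Of the 6 tested membrane-type MMPs 5 were called higher in CAF and Mmp24 lower (31.6% and 30.0% of all genes). With TGFb1 in NF 4 were called higher and 0 lower (14.6% and 14.4% of all genes). Mmp15 (chr8:95352268-95375080, plus strand), a transmembrane MMP, had the largest log2 fold change of the 50 tested members between the lines, from 0.199, 0.382 and 0.343 CPM in NF to 30.5, 27.7 and 36.5 in CAF controls (log2 fold change 6.70 ± 0.27, adjusted p = 5.64e-13). In NF with TGFb1 it was at 0.822, 0.709 and 0.759 CPM (log2 fold change 1.33 ± 0.34, adjusted p = 0.00609), a rise that stayed far below CAF. Mmp14 (chr14:54431612-54445364, plus strand) differed much less, with 214, 236 and 222 CPM in NF, 283, 304 and 320.4 with TGFb1 and 343, 277 and 315 in CAF (log2 fold change 0.48 ± 0.10, adjusted p = 0.00062). For TGFb1 the value was 0.43 ± 0.10 (adjusted p = 0.00387). Mmp24, at no more than 0.8401 CPM in any group mean, was lower in CAF and higher with TGFb1 (-1.43 ± 0.45 and 1.09 ± 0.39, adjusted p = 0.0104 and 0.0437). The TGFb1 call was lost without NF vehicle library 1 or 3, without TGFb1 library 1 or 2 and with no filter on low counts (adjusted p = 0.122, 0.122, 0.117, 0.131 and 0.0723), and 13.6% of its exon bases overlap BC029722 on the other strand, which was at 48.6 TPM. Mmp16 was higher in CAF (3.70 ± 0.47, adjusted p = 1.83e-06). Mmp17 was higher both in CAF and with TGFb1 (2.09 ± 0.35 and 2.58 ± 0.35, adjusted p = 5.09e-05 and 2.42e-05). Mmp17 levels were low, at 0.585, 3.48 and 2.46 CPM. Mmp25 rested on 51 counts in the 3 CAF control libraries and 2 in NF, a ratio of 25.9 with a counting interval of 6.81 to 219 (95%, exact).

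In CAF, siHsp90aa1 raised both leading membrane-type genes. Mmp15 went to 84.1, 62.7 and 78.3 CPM (log2 fold change 1.25 ± 0.18, adjusted p = 0.000125). Mmp14 went to 521, 393 and 447 (log2 fold change 0.54 ± 0.10, adjusted p = 0.000963). No library of either gene overlapped the controls. With siHsp90ab1 Mmp15 was at 45.7, 41.2 and 66.5 CPM (log2 fold change 0.69 ± 0.18, adjusted p = 0.09403, with the block 0.0131). In NF with TGFb1, siHsp90aa1 left Mmp15 at 0.644, 0.649 and 0.435 CPM (-0.37 ± 0.31, adjusted p = 0.395). It left Mmp14 at 374, 360.2 and 358 (0.27 ± 0.10, adjusted p = 0.06003, with the block 0.0377). The Mmp14 libraries lay above the TGFb1 controls in NF as well, although the call was made only with the block.

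Among the other MMPs, Mmp11 (chr10:75923222-75936496, minus strand), stromelysin-3, which furin activates inside the cell and which is known from the stroma of breast carcinomas, was at 10.9, 19.2 and 14.2 CPM in NF and at 36.1, 35.5 and 37.5 in CAF (log2 fold change 1.30 ± 0.14, adjusted p = 3.39e-07). With TGFb1 in NF it was at 18.5, 24.7 and 20.9 CPM, called higher although 1 library lay within the vehicle range (log2 fold change 0.54 ± 0.14, adjusted p = 0.00848), a call lost without TGFb1 library 2 and with only these groups in the fit (adjusted p = 0.0666 and 0.0992). It rose again with siHsp90aa1 in CAF, to 61.04, 51.6 and 53.5 (log2 fold change 0.61 ± 0.14, adjusted p = 0.00401). Mmp19 (chr10:128790910-128800824, plus strand), a secreted MMP, went from 42.8, 40.2 and 54.4 CPM in NF to 171, 141 and 138 in CAF (log2 fold change 1.71 ± 0.16, adjusted p = 4.84e-08). With TGFb1 it fell to 23.03, 23.4 and 29.8 (log2 fold change -0.85 ± 0.16, adjusted p = 0.000593). In Mmp19, 22.3% of the exon bases overlap Tmem198b on the other strand, which was at 32.5 TPM. Mmp28 (chr11:83440768-83463071, minus strand), epilysin, was at 5.66, 7.78 and 13.3 CPM in CAF controls and at 15.3, 17.4 and 28.3 with siHsp90aa1 (log2 fold change 1.19 ± 0.36, adjusted p = 0.0209, with the block 3.71e-06). Its siHsp90aa1 libraries all lay above the controls, and replicate 3 was the highest library of both groups. The call was lost without control 1 or 2 or siHsp90aa1 replicate 3, and with only these groups in the fit (adjusted p = 0.111, 0.08498, 0.129 and 0.0573). In NF with TGFb1 Mmp28 was at 4.86, 6.801 and 9.52 CPM in controls and 11.05, 12.7 and 16.4 with siHsp90aa1 (0.92 ± 0.36, adjusted p = 0.0648, with the block 3.99e-05). Mmp23 was lower in CAF than in NF, at 1.39 ± 0.254 against 2.300 ± 0.442 CPM (log2 fold change -0.72 ± 0.24, adjusted p = 0.0147), and higher with siHsp90aa1 in CAF (0.72 ± 0.24, adjusted p = 0.03598). The first call was lost without NF vehicle library 2 (adjusted p = 0.0584), and the second without CAF control 1 or 2, without any 1 of the siHsp90aa1 libraries and with no filter on low counts (adjusted p = 0.131, 0.1395, 0.0899, 0.0829, 0.0749 and 0.0775).

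Within the chromosome 9 block Mmp3 (chr9:7445822-7455975, plus strand), stromelysin-1, was the 1 gene with enough counts to test. In CAF controls it was at 7.43, 1.64 and 0.153 CPM, a wide spread within 1 group, against 0, 0.135 and 0.229 in NF with vehicle. CAF was called higher (log2 fold change 4.70 ± 1.43, adjusted p = 0.0107), with overlapping libraries, and without CAF control 1 the log2 value was 2.84 with an adjusted p of 0.0992. It was 4.06 without NF vehicle library 1, 5.64 without NF vehicle library 3 and 3.80 with the block. It held 18 counts in NF with vehicle and 0 with TGFb1, at least 5.27-fold lower at a floor of 3 counts per group, and this was not called (adjusted p = 0.308). With siHsp90aa1 in CAF it was at 0.545, 0.127 and 0.0251 CPM (log2 fold change -3.60 ± 1.30, adjusted p = 0.0582, with the block 0.0191), and with siHsp90ab1 at 11.1, 2.898 and 0.514. The neighbours Mmp10 and Mmp13 had 140 and 90 counts over all 21 libraries, of which 65 and 31 fell in CAF controls, 6 and 9 in CAF with siHsp90aa1 and 48 and 35 in CAF with siHsp90ab1. In the 4 NF groups Mmp10 had 6, 2, 5 and 8 counts and Mmp13 2, 2, 8 and 3, in the order vehicle, TGFb1, siHsp90aa1 and siHsp90ab1. The highest count in 1 library was 62 for Mmp10, in a CAF control, and 28 for Mmp13, in CAF. The CAF control total of Mmp10 thus came almost wholly from 1 library. No test was made for these 2 genes.

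The general sheddase genes moved little. Adam10, which releases Notch and cadherin domains, was at 112 ± 4.39 CPM in NF and 171 ± 3.54 in CAF controls (log2 fold change 0.61 ± 0.06, adjusted p = 3.01e-08), and Adam9 at 225 ± 9.17 and 286 ± 12.2 (log2 fold change 0.35 ± 0.07, adjusted p = 0.000158). Adam17, the sheddase of TNF and of ligands of the EGF receptor, was not called between the lines (0.05 ± 0.07, adjusted p = 0.5802). It fell with TGFb1 in NF, from 78.6, 68.2 and 72.96 to 55.98, 52.97 and 55.5 CPM (log2 fold change -0.42 ± 0.07, adjusted p = 0.000221), and stood at 77.5, 70.9 and 66.05 with siHsp90aa1 and TGFb1 (log2 fold change 0.38 ± 0.07, adjusted p = 0.00071). In CAF it rose from 75.6, 72.99 and 78.5 to 91.5, 91.1 and 99.8 CPM with siHsp90aa1 (log2 fold change 0.31 ± 0.07, adjusted p = 0.00348). These changes were small, and in each the groups did not overlap. In Adam17, 4.35% of the exon bases overlap Iah1 on the other strand, which was at 24.7 TPM. Adam10 was also called higher with siHsp90aa1 in NF (0.27 ± 0.06, adjusted p = 0.00166), as were Adam9 and Adam15 at an adjusted p of 0.0187 and 0.03903. The Adam9 call was lost without TGFb1 control 1 or 2 or siHsp90aa1 replicate 2 or 3 (adjusted p = 0.0754, 0.0594, 0.06105 and 0.05296). That of Adam15 was lost without control 1 or 3 or any 1 of the 3 siHsp90aa1 libraries (adjusted p = 0.192, 0.0766, 0.114, 0.0649 and 0.0857), and both were lost with no filter on low counts (adjusted p = 0.0734 and 0.0602).

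Adam12 and Adam19 were the 2 of 14 tested ADAM genes called higher with TGFb1, where 5 were called lower (14.6% and 14.4% of all genes). Among the 5 was Adam9 (-0.19 ± 0.07, adjusted p = 0.0397), a call kept under 7 of 12 alternatives. Adam12 (chr7:133883199-134232146, minus strand), meltrin alpha, was at 31.6, 41.7 and 47.6 CPM in NF with vehicle, at 211, 224 and 260.3 with TGFb1 (log2 fold change 2.52 ± 0.18, adjusted p = 1.45e-08). In CAF controls it was at 171, 161 and 157 (log2 fold change 2.01 ± 0.18, adjusted p = 2.15e-08). Adam19 (chr11:46055992-46147343, plus strand), meltrin beta, was at 32.8, 34.6 and 23.6 CPM with vehicle, at 129.9, 149 and 163 with TGFb1 and at 148, 131 and 85.2 in CAF controls (2.28 ± 0.21 with TGFb1 and 2.01 ± 0.21 in CAF, adjusted p = 3.00e-07 and 1.91e-07). Neither gene was called with an HSP90 siRNA against control. Adam33 (chr2:131050591-131063814, minus strand), an ADAM known from mesenchymal cells and from asthma genetics, divided the lines almost completely, with 0.695, 0.696 and 0.744 CPM in NF and 63.2, 59.8 and 61.4 in CAF (log2 fold change 6.43 ± 0.14, adjusted p = 4.67e-16). With TGFb1 in NF it went to 0.178, 0.145 and 0.235 CPM (log2 fold change -1.96 ± 0.22, adjusted p = 2.82e-06), the opposite direction to Adam12 and Adam19. Adam8 (chr7:139978932-139992562, minus strand), a sheddase known from leukocytes, was higher in NF, at 22.1, 23.7 and 15.03 CPM, than in CAF controls, at 3.14, 3.81 and 4.47 (log2 fold change -2.42 ± 0.21, adjusted p = 1.92e-08). It fell further with siHsp90aa1 in CAF, to 2.29, 2.105 and 1.76 (log2 fold change -0.88 ± 0.23, adjusted p = 0.00807). Adam23 (chr1:63445891-63596276, plus strand), an adhesion protein without protease activity, fell with TGFb1 from 60.3, 72.03 and 91.2 to 21.3, 29.2 and 31.8 CPM (log2 fold change -1.44 ± 0.23, adjusted p = 0.000113). With siHsp90aa1 and TGFb1 it was at 60.5, 67.01 and 79.6 (log2 fold change 1.33 ± 0.23, adjusted p = 0.000366), back in the range of the vehicle libraries, and with siHsp90ab1 and TGFb1 at 16.4, 23.4 and 31.8 (-0.20 ± 0.23, adjusted p = 0.814). Of the low ADAM genes, Adam5 and Adam11 were called higher in CAF (2.22 ± 0.48 and 0.94 ± 0.28, adjusted p = 0.000601 and 0.00774) and Adam5 lower with TGFb1 (-1.74 ± 0.64, adjusted p = 0.0474). The call with TGFb1 was lost without NF vehicle library 1 or 3, without any 1 of the TGFb1 libraries and with no filter on low counts (adjusted p = 0.109, 0.136, 0.154, 0.0786, 0.0721 and 0.06502). Their group means were at most 0.938 and 1.06 CPM.

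**Figure D3:**
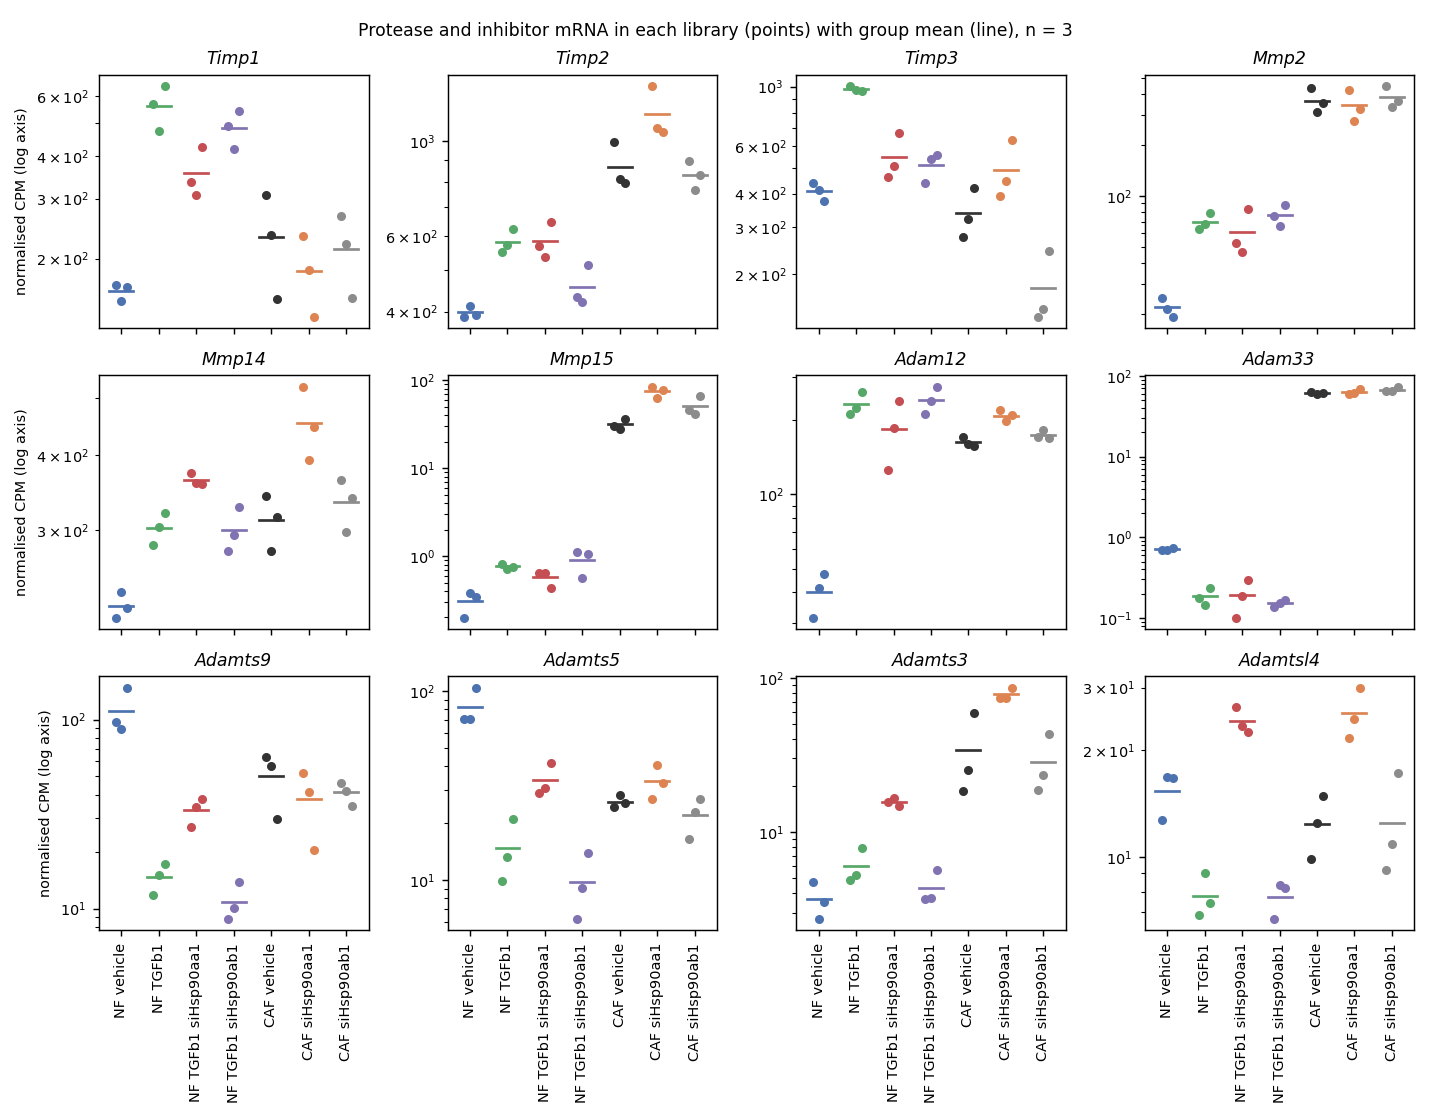
Normalised CPM (log axes) of 12 members in each of the 21 libraries by group, with lines at the group means (n = 3). Timp1, Timp3 and Adam12 are high in NF with TGFb1, Mmp2, Mmp15 and Adam33 are high in all 9 CAF libraries, and Adamts9 and Adamts5 are highest in NF with vehicle.

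The proteoglycanases, the ADAMTS enzymes that cut versican and aggrecan, mostly fell with TGFb1. Of the 6 tested, 4 were called lower and 1 higher (14.4% and 14.6% of all genes). Adamts9 (chr6:92772699-92943492, minus strand) went from 97.5, 89.3 and 147 CPM with vehicle to 11.8, 15.02 and 17.1 with TGFb1 (log2 fold change -2.93 ± 0.33, adjusted p = 2.51e-06). Adamts5 (chr16:85856173-85901828, minus strand) went from 70.7, 70.7 and 104 to 9.93, 13.2 and 20.9 CPM (log2 fold change -2.48 ± 0.29, adjusted p = 4.63e-06). Adamts1 (chr16:85793827-85803113, minus strand), which lies 53.1 kb from Adamts5, went from 40.4, 32.6 and 58.7 to 9.62, 10.4 and 15.98 CPM (log2 fold change -1.88 ± 0.29, adjusted p = 7.82e-05). The libraries with and without TGFb1 did not overlap for any of these 3 genes. Adamts15 (chr9:30899155-30922452, minus strand) was low and fell as well, from 0.612, 1.28 and 2.15 to 0.0666, 0.0364 and 0.105 CPM (-4.30 ± 0.60, adjusted p = 3.15e-05). Adamts4 (chr1:171250421-171260637, plus strand), an aggrecanase, went the other way, from 15.8, 15.5 and 18.4 to 34.7, 36.2 and 48.97 CPM (log2 fold change 1.27 ± 0.20, adjusted p = 0.000105).

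Between the lines these 5 genes were split. Adamts1 was higher in CAF controls, at 137, 71.6 and 75.7 CPM (log2 fold change 1.11 ± 0.27, adjusted p = 0.00184). So were Adamts4, at 48.6, 38.4 and 41.2 (log2 fold change 1.37 ± 0.20, adjusted p = 1.04e-05), and Adamts15, at 11.1, 7.35 and 10.96 (log2 fold change 2.87 ± 0.40, adjusted p = 5.35e-06). Adamts5 and Adamts9 were lower in CAF controls, Adamts5 at 24.2, 28.1 and 25.4 CPM and Adamts9 at 63.6, 57.02 and 29.8 (-1.66 ± 0.28 and -1.15 ± 0.30, adjusted p = 5.61e-05 and 0.00312). With siHsp90aa1 in NF with TGFb1, Adamts9 was at 26.9, 34.6 and 37.8 CPM (log2 fold change 1.18 ± 0.31, adjusted p = 0.00906). Adamts5 was at 28.99, 30.5 and 41.5 (log2 fold change 1.20 ± 0.28, adjusted p = 0.00425). Both thus lay above the TGFb1 controls and below the vehicle libraries, and the Adamts9 call was lost without TGFb1 control 1 (adjusted p = 0.0515). In CAF, siHsp90aa1 raised Adamts1 to 185, 139.6 and 177 CPM (log2 fold change 0.82 ± 0.27, adjusted p = 0.0336), a call lost without control 2 or 3 or siHsp90aa1 replicate 1 or 3 and with only these groups in the fit (adjusted p = 0.168, 0.112, 0.0995, 0.102 and 0.0669).

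The procollagen propeptidases, which trim the amino-terminal ends of fibrillar procollagens, were higher in CAF for 2 of 3 genes (31.6% of all genes). Adamts2 (chr11:50602084-50807573, plus strand) was at 25.3, 30.5 and 38.98 CPM in NF and at 289, 271 and 337 in CAF controls (log2 fold change 3.24 ± 0.25, adjusted p = 2.71e-09). Adamts3 (chr5:89677087-89883334, minus strand) was at 4.72, 2.74 and 3.51 CPM in NF and at 18.5, 25.2 and 58.9 in CAF (log2 fold change 3.22 ± 0.39, adjusted p = 1.04e-06). The spread in CAF was wide, and without CAF control 3 the log2 value was 2.55. Adamts14 (chr10:61197112-61273438, minus strand) was not called between the lines (-0.25 ± 0.18, adjusted p = 0.2498) and fell with TGFb1, from 38.6, 41.8 and 47.98 to 22.8, 20.4 and 20.6 CPM (log2 fold change -1.01 ± 0.18, adjusted p = 0.000448). Adamts3 was 1 of 4 members called with siHsp90aa1 in both lines. It stood at 4.86, 5.24 and 7.901 CPM in the NF TGFb1 controls and at 15.6, 16.5 and 14.6 with siHsp90aa1 (log2 fold change 1.38 ± 0.37, adjusted p = 0.00925). In CAF it rose to 73.9, 74.4 and 85.9 (log2 fold change 1.19 ± 0.35, adjusted p = 0.0173). In both lines every siHsp90aa1 library lay above every control. The CAF call was lost without control 1 or 2, without siHsp90aa1 replicate 3 and with only these groups in the fit (adjusted p = 0.0902, 0.0899, 0.0591 and 0.0766), and without control 3 the log2 value was 1.83.

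Of the 6 remaining tested ADAMTS genes 3 were called higher with TGFb1 and 0 lower (14.6% and 14.4% of all genes). Adamts12 (chr15:11064790-11349231, plus strand), known to cut the cartilage protein COMP, went from 7.73, 5.95 and 7.46 to 21.9, 22.9 and 32.8 CPM (log2 fold change 1.87 ± 0.23, adjusted p = 7.30e-06). It stood at 30.6, 35.3 and 47.7 in CAF controls (log2 fold change 2.42 ± 0.23, adjusted p = 5.48e-08). Adamts16 (chr13:70727802-70841811, minus strand) went from 2.07, 2.85 and 3.95 to 6.48, 8.18 and 12.2 CPM (log2 fold change 1.60 ± 0.35, adjusted p = 0.00215). Adamts6 (chr13:104287835-104496695, plus strand) went from 10.6, 7.43 and 11.3 to 19.4, 19.9 and 22.6 (log2 fold change 1.08 ± 0.12, adjusted p = 3.56e-06). Adamts7 (chr9:90163069-90208071, plus strand), the close relative of Adamts12, was lower in CAF controls, at 37.98, 27.8 and 28.5 CPM, than in NF with vehicle, at 70.02, 59.4 and 64.7 (log2 fold change -1.04 ± 0.22, adjusted p = 0.000568). It fell again with siHsp90aa1 in CAF, to 19.4, 12.04 and 10.1 (log2 fold change -1.18 ± 0.23, adjusted p = 0.00113), below all 3 controls. Adamts10 (chr17:33524204-33553782, plus strand), which binds fibrillin microfibrils, was at 16.8, 27.3 and 29.5 CPM in NF and 56.4, 59.8 and 64.9 in CAF (log2 fold change 1.30 ± 0.17, adjusted p = 2.97e-06). Adamts17, below 1 CPM in every group, was also called higher in CAF (2.25 ± 0.83, adjusted p = 0.02504), a call lost without CAF control 3 or NF vehicle library 1 or 2 (adjusted p = 0.104, 0.0834 and 0.0837), and without NF vehicle library 3 the log2 value was 3.45.

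The ADAMTS-like genes encode matrix proteins with no catalytic domain, several of which bind fibrillin microfibrils. Adamtsl1 (chr4:85514172-86428385, plus strand) was at 0.132, 0.225 and 0.2098 CPM in NF and at 4.099, 4.21 and 8.37 in CAF controls (log2 fold change 4.88 ± 0.48, adjusted p = 7.96e-08). Adamtsl3 (chr7:82335694-82614450, plus strand) rose with TGFb1 in NF, from 2.93, 2.83 and 1.13 to 17.6, 13.3 and 8.69 CPM (log2 fold change 2.52 ± 0.31, adjusted p = 9.11e-06). It was lower in CAF, at 0.353, 0.4901 and 0.325 (log2 fold change -2.59 ± 0.38, adjusted p = 1.09e-05). Adamtsl4 (chr3:95676201-95687917, minus strand) fell with TGFb1, from 12.7, 16.8 and 16.7 to 6.86, 9.04 and 7.404 CPM (log2 fold change -0.98 ± 0.21, adjusted p = 0.00146). It had the largest rise of any tested member with siHsp90aa1 in NF, to 26.4, 23.4 and 22.5 (log2 fold change 1.63 ± 0.21, adjusted p = 3.04e-05). In CAF it went from 9.86, 12.5 and 14.9 to 21.7, 24.5 and 29.9 CPM (log2 fold change 1.03 ± 0.20, adjusted p = 0.00124). With siHsp90ab1 it was at 6.71, 8.37 and 8.16 CPM in NF and 9.17, 10.9 and 17.3 in CAF, which overlapped the controls in each line. Adamtsl5 was called higher with siHsp90aa1 in both lines as well (0.66 ± 0.16 in NF and 0.48 ± 0.15 in CAF, adjusted p = 0.00448 and 0.0274). The CAF call was lost without any 1 of the controls, without siHsp90aa1 replicate 1 or 3 and with no filter on low counts (adjusted p = 0.06797, 0.107, 0.0515, 0.0645, 0.103 and 0.0501). Adamtsl2, below 1 CPM in every group, was called higher in CAF and with siHsp90aa1 in CAF (3.06 ± 0.81 and 1.95 ± 0.55, adjusted p = 0.00307 and 0.0145), the latter call lost without CAF control 2 or siHsp90aa1 replicate 1 (adjusted p = 0.0699 and 0.0846). With siHsp90ab1 in CAF it was not called (1.55 ± 0.56, adjusted p = 0.316), although these libraries did not overlap the controls either.

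The siHsp90aa1 comparisons of the 2 lines share no library. Adamts3, Adamtsl4, Adamtsl5 and Adam17, 4 of the 50 members, were called higher in both, as were 5.48% of all genes tested. The effect itself differed between the lines for 6 members, 4 with a higher and 2 with a lower value in CAF, where 5.46% of all genes passed this interaction test; with the block 13 passed, against 12.3%. For Timp3 the difference was 1.38 ± 0.30 (CAF minus NF, adjusted p = 0.0118), for Mmp15 1.62 ± 0.36 (0.0125), for Mmp17 1.63 ± 0.45 (0.0427) and for Adamts6 0.63 ± 0.17 (0.0414). For Adamts9 it was -1.58 ± 0.43 (0.0413) and for Mmp19 -0.96 ± 0.22 (0.0169). Mmp19 had been raised by siHsp90aa1 in NF with TGFb1, to 40.4, 38.6 and 45.2 CPM (log2 fold change 0.70 ± 0.16, adjusted p = 0.00343), whereas in CAF its siHsp90aa1 libraries were at 147, 116 and 111 (-0.26 ± 0.16, adjusted p = 0.243). The line and the presence of TGFb1 cannot be told apart in this difference. Leaving out 1 library at a time gave 2 to 5 members higher and 1 to 3 lower, and 453 to 951 of all genes either way. The call of Adamts6 was lost without any 1 of the 6 NF libraries, without CAF control 2 or 3 or without CAF siHsp90aa1 replicate 2 or 3, at an adjusted p of up to 0.121 without NF control 3, and also with no filter on low counts (adjusted p = 0.0808). That of Adamts9 was lost without any 1 of the 6 NF libraries, without CAF control 1 or 2 or without CAF siHsp90aa1 replicate 2 or 3, up to 0.103 without NF control 1, and also with only the 4 groups of this test in the fit (adjusted p = 0.0682). That of Mmp17 was lost without NF control 2 or 3, NF siHsp90aa1 replicate 1 or 2, CAF control 1 or 2 or any 1 of the CAF siHsp90aa1 libraries, up to 0.135 without NF control 3, and also with only these 4 groups in the fit (adjusted p = 0.0626). The calls of Timp3, Mmp15 and Mmp19 were kept without any single library. For siHsp90ab1 0 members and 0.00657% of all genes passed by edgeR; 1 member had an unadjusted p under 0.05, and DESeq2 called 0 members.

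**Figure D4:**
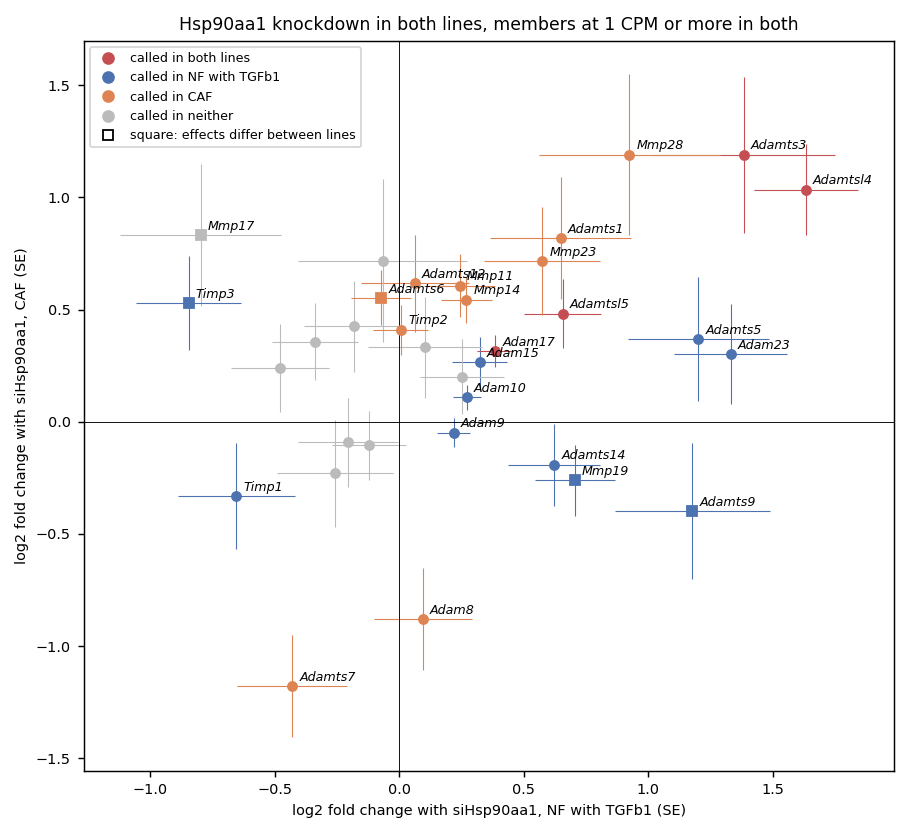
Log2 fold change with siHsp90aa1 in NF with TGFb1 (x axis) and in CAF (y axis) for the 34 members with a group mean of at least 1 CPM in each line, with bars of 1 standard error; squares mark members whose effect differed between the lines. Adamts3 and Adamtsl4 lie far to the upper right, Timp3 to the upper left and Adamts9 and Mmp19 to the lower right; Mmp15, below 1 CPM in NF, is not drawn.

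Set directly against each other, siHsp90aa1 gave higher values than siHsp90ab1 for 16 members in NF with TGFb1 and lower for 2 (17.7% and 16.4% of all genes), and in CAF for 16 and 4 (13.1% and 13.3%). With the block 5 were lower in NF, against 20.3%. Leaving out 1 library took the higher counts to as few as 9 in NF, without siHsp90aa1 replicate 3 or siHsp90ab1 replicate 1 or 2, and to 7, 8 and 9 in CAF, without siHsp90aa1 replicate 3 and siHsp90ab1 replicates 1 and 2. The lower count in NF was 4 without siHsp90aa1 replicate 3 and 1 without siHsp90ab1 replicate 1 or 3, and in CAF 1 without siHsp90aa1 replicate 2 or 3 and 2 without siHsp90ab1 replicate 2. Over all genes the calls either way moved too, to between 3841 and 4700 in NF and between 2478 and 4285 in CAF. Adamtsl4 and Adamts3 were among the higher members in both lines (1.64 ± 0.21 and 1.83 ± 0.37 in NF, 1.03 ± 0.20 and 1.46 ± 0.35 in CAF, adjusted p = 1.25e-05, 0.00105, 0.001404 and 0.00548). Timp3 did not pass between the 2 siRNAs in NF (0.09 ± 0.21, adjusted p = 0.7703) and was higher with siHsp90aa1 in CAF (log2 fold change 1.47 ± 0.22, adjusted p = 0.000135).

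The proteins that open or block these proteases from outside the family were taken as a list of 17 genes, of which 14 were tested. The counts of this and the next 3 lists stand beside 31.6% higher and 30.0% lower over all genes in CAF against NF, 14.6% and 14.4% with TGFb1, and, with siHsp90aa1, 14.8% and 13.5% in NF and 12.5% and 12.9% in CAF. In CAF against NF 11 were called higher and 1 lower, with a median log2 fold change of 2.37 over the list and -0.00 over all genes. Reck, a membrane-anchored MMP inhibitor, rose from 1.82 to 19.8 CPM on average (log2 fold change 3.45 ± 0.16, adjusted p = 4.45e-12), and Pcsk6, a proprotein convertase, from 2.26 to 30.3 (log2 fold change 3.74 ± 0.32, adjusted p = 1.42e-08). Serpine2, an inhibitor of serine proteases, was the 1 that fell, from 66.4 to 0.441 CPM (log2 fold change -7.26 ± 0.41, adjusted p = 4.44e-11). With TGFb1 5 were called higher and 0 lower (with the block 5 and 1, median 0.13), led by Furin, the convertase that opens MMP14 and MMP11 (log2 fold change 1.02 ± 0.11, adjusted p = 2.11e-06), and Plaur, the urokinase receptor (log2 fold change 1.68 ± 0.41, adjusted p = 0.00501). With siHsp90aa1 in NF Plat rose (0.74 ± 0.11, adjusted p = 0.000108) and Furin fell (-0.37 ± 0.11, adjusted p = 0.0202), and in CAF Pcsk6 rose (0.80 ± 0.28, adjusted p = 0.04202). With the block these counts were 2 higher and 3 lower in NF and 2 and 1 in CAF, and siHsp90ab1 gave 0 in both lines by edgeR with or without the block, by DESeq2 and at an unadjusted p under 0.05.

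ADAM10 and ADAM17 leave the endoplasmic reticulum with tetraspanins and with the iRhoms, Rhbdf1 and Rhbdf2, and 8 of 9 such partner genes were tested. Rhbdf2 differed most between the lines, at 0.509 CPM in NF and 20.7 in CAF (log2 fold change 5.35 ± 0.18, adjusted p = 6.26e-14), 1 of 3 called higher beside 2 lower (median of the list 0.10). With TGFb1 2 were called higher and 1, Tspan5, lower (log2 fold change -0.82 ± 0.14, adjusted p = 0.000269). Tspan14, a partner of ADAM10, fell with siHsp90aa1 in both lines, to 14.6 from 30.7 CPM in NF (log2 fold change -1.08 ± 0.16, adjusted p = 0.000107) and to 7.09 from 16.3 in CAF (log2 fold change -1.20 ± 0.16, adjusted p = 6.47e-05). Tspan17 rose in both (0.52 ± 0.17 and 0.78 ± 0.17, adjusted p = 0.0334 and 0.00293). In all, siHsp90aa1 gave 1 higher and 2 lower in each line (medians -0.13 and -0.15), with the block 2 and 2 in NF, and siHsp90ab1 gave 0. At an unadjusted p under 0.05 siHsp90ab1 gave 1 in NF and 2 in CAF, and DESeq2 called 0 and 1.

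Of 23 membrane proteins that ADAMs shed, 21 were tested. CAF held 8 higher and 8 lower (31.6% and 30.0% of all genes), and TGFb1 6 and 5 (14.6% and 14.4% of all genes), with medians of 0.01 and 0.02. The Notch ligand Jag1 and the EGF receptor ligand Hbegf rose with TGFb1 at the smallest p of the list, from 12.5 to 138 and from 5.11 to 40.4 CPM (3.46 ± 0.38 and 2.98 ± 0.45, adjusted p = 1.90e-06 and 6.77e-05). With siHsp90aa1 2 were higher and 4 lower in NF and 1 and 5 in CAF, with the block 5 and 4, and 3 and 5. Ereg, epiregulin, fell in both lines (-1.28 ± 0.33 and -1.51 ± 0.34, adjusted p = 0.007104 and 0.00313), and Jag1 fell in NF (log2 fold change -1.38 ± 0.35, adjusted p = 0.00641). With siHsp90ab1 the Notch ligand Dll1 fell in NF (log2 fold change -1.72 ± 0.37, adjusted p = 0.0167) and 0 were called in CAF, where 2 had an unadjusted p under 0.05 and DESeq2 called 1. With the block 1 was higher and 1 lower in each line.

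Of 14 matrix proteins that ADAMTS enzymes process, 11 were tested. CAF held 6 higher and 3 lower, and TGFb1 6 and 0, with medians of 0.96 and 1.16. The fibrillar collagen genes led in both, with Col1a1 at 2475 CPM in NF with vehicle, 9570.0 with TGFb1 and 19809 in CAF controls (1.95 ± 0.16 and 3.00 ± 0.17, adjusted p = 6.69e-08 and 4.06e-11). The fibrillin genes were opposed between the lines, Fbn1 higher in CAF (1.59 ± 0.24, adjusted p = 1.78e-05) and Fbn2 lower, from 3.84 to 0.02400 CPM (-7.08 ± 0.44, adjusted p = 4.55e-09). With siHsp90aa1 versican, Vcan, rose in NF (log2 fold change 0.50 ± 0.17, adjusted p = 0.0323), 1 of 2 called higher and 0 lower (with the block 2 and 1), and Fbn1, Col1a1 and Col1a2 rose in CAF (0.91 ± 0.24, 0.52 ± 0.16 and 0.54 ± 0.18, adjusted p = 0.00947, 0.02099 and 0.0322). With siHsp90ab1 0 were called in either line by edgeR or DESeq2, and 0 in NF and 2 in CAF had an unadjusted p under 0.05.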

How the data were processed

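RNA of the 21 libraries was sequenced as stranded polyA mRNA. STAR, Salmon and the GRCm38 build are named in the submitters' processing notes; neither a version nor the strand setting of the counting is stated there. As deposited by the authors, the files held Salmon estimated counts per gene, which need not be whole, and TPM values, which the authors' quantification scales by transcript length and library total. All values came from those 2 deposited tables, and 0 columns were left without a sample. The members and lists were chosen with earlier results of these data known.

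The estimated counts were rounded and genes kept by edgeR's filterByExpr (minimum count 10, minimum total 15). All 21 libraries entered 1 edgeR 4.0.16 quasi-likelihood fit (limma 3.58.1, R 4.3.3) with TMM factors, a coefficient per group and 10 contrasts, and p-values were adjusted by Benjamini-Hochberg over all genes tested in each. The counting interval of a ratio of counts is exact at 95%. The fit was tested on simulated data, where it recovered 54% to 74% of the genes changed 2-fold and 79% to 90% of those changed 4-fold, over 8 comparisons. Of its calls 3.07% to 7.32% were genes left unchanged, above the nominal 5% in 5 of the 8. The simulated libraries were independent, without a shared batch, and 200 genes were changed in each comparison. These rates therefore need not hold for the real libraries. Python 3.11.15 with pandas 2.3.3, SciPy 1.17.1 and matplotlib 3.10.9 made the remaining tables and figures. Gene positions are from GENCODE M21, which held 84 of the 85 members.

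The labels give the replicate number as a batch, so libraries of the same number in different groups share one. Deviations from the group means correlated above 0.1 in 54 of 63 pairs with the same number (mean 0.35, -0.15 to 0.93), against a mean of -0.17 over other pairs (7615 genes). Deviations cancel out within a group, so the negative mean largely follows from the positive mean and is no separate evidence of a batch. Between CAF groups the pairs with the same number were at 0.67 to 0.93, and between CAF and NF vehicle controls at 0.04 to 0.24. With the block 38 further calls of a member in a comparison were made, and only some of these values are printed. Others include Adam23 lower in CAF than in NF (adjusted p = 0.000799) and Adamts2 higher with TGFb1 (0.00311). With siHsp90aa1, Adamtsl1 and Mmp17 were higher in CAF (0.00356 and 0.00488), and Mmp17 and Adamts7 lower in NF (0.00915 and 0.0299). Replicates of a group differed beyond sampling noise, since every pair had a chi-square 17.5 to 155 times its degrees of freedom.

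Full values were given for members called in at least 1 of the first 6 comparisons with an absolute log2 fold change of at least 1 and at least 5 CPM in the higher group. The 10 members with the highest TPM, and up to 3 called genes with the smallest p per outside list and comparison, could also be named. Members named outside this rule, Mmp3, Mmp10, Mmp13, Mmp16, Mmp17, Mmp23, Mmp24, Mmp25, Adam5, Adam11, Adam17, Adamts17, Adamtsl2, Adamtsl5 and the uncalled genes, were named after their values were seen. The alternatives were DESeq2 1.42.0 with its own test, its size factors in edgeR, no filter, a filter of 1 CPM in 3 libraries, the replicate block, only the groups compared, and each library left out in turn. An overlap of 1 member with a neighbouring gene is not reported here.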

Additional observations from a re-analysis of the deposited data

Results flagged for a closer look

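The effect of siHsp90aa1 against control siRNA differed between CAF (with vehicle) and NF (with TGFb1) for 6 members, by edgeR's test of the difference itself. Of all genes tested, 5.46% passed this test. Given as the log2 fold change in CAF minus that in NF, it was 1.38 for Timp3 (adjusted p = 0.0118), 1.62 for Mmp15 (adjusted p = 0.0125), 1.63 for Mmp17 (adjusted p = 0.0427) and 0.63 for Adamts6 (adjusted p = 0.0414). It was -1.58 for Adamts9 (adjusted p = 0.0413) and -0.96 for Mmp19 (adjusted p = 0.0169). The calls of Timp3, Mmp15 and Mmp19 were kept under all 18 alternatives. That of Mmp17 was kept under 8, and those of Adamts6 and Adamts9 under 7 each. The line and TGFb1 cannot be told apart here.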

How the results depend on the processing

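Of 141 called pairs of member and comparison 94 stayed called under every alternative, 47 lost the call under at least 1, and 0 changed sign. The comparisons of CAF with NF and of TGFb1 kept their counts within 1.5 times throughout. With the replicate block, which pairs libraries by batch number, members called lower became 6 with siHsp90aa1 in NF, 4 in CAF, 5 for siHsp90aa1 against siHsp90ab1 in NF and 7 for the siHsp90aa1 difference between lines; members called higher with siHsp90ab1 became 1 in each line; and genes called became 902 and 360 with siHsp90ab1 in NF and CAF, 1871 and 3 for the siHsp90aa1 and siHsp90ab1 differences. No call of a member was lost with the block, and 38 were gained. DESeq2 gave 708, 324, 1333 and 18 for these counts of genes, 1 member higher with siHsp90ab1 in CAF, and 6 lower for the siHsp90aa1 difference, which was 4 with no filter. With only the groups compared, siHsp90ab1 in CAF gave 5 genes and 0 members lower, and siHsp90aa1 against siHsp90ab1 in NF 5 lower. Leaving out 1 library gave, for genes called, 157 to 329 and 44 to 102 with siHsp90ab1 in NF and CAF, 2460 to 4426 with siHsp90aa1 in CAF, 2478 to 4285 for siHsp90aa1 against siHsp90ab1 in CAF, and 453 to 951 and 0 to 2 for the 2 differences between lines. For members it gave 1 to 5 lower with siHsp90aa1 in NF, 6 to 14 higher and 2 to 5 lower in CAF, 0 to 1 lower with siHsp90ab1 in each line, 9 to 15 higher and 1 to 4 lower for siHsp90aa1 against siHsp90ab1 in NF, 7 to 14 and 1 to 6 in CAF, and 2 to 5 and 1 to 3 for the siHsp90aa1 difference. The causes were not tested. Depth limits the genes below 1 CPM, whose fold changes rest on few counts.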
